A study of Mus musculus with 20 samples.

Results

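The genes described here lie on mouse chromosome 16 beyond Runx1 and up to and including Zbtb21, between positions 92409702 and 97763836 of GRCm39, a stretch of 5.35 Mb at the distal end of the segment that is duplicated in Dp1Tyb mice. They were the rows of the expression table whose Ensembl identifier falls in this interval by gene order in GENCODE M39, of any gene type, leaving out Dyrk1a and Hmgn1. This gave 52 genes of the 48795 in the table. Of these, 37 were protein coding, and the other 15 were long noncoding RNAs, pseudogenes, microRNAs and other short or unclassified transcripts. The table gives mRNA levels in 20 whole hearts of E13.5 mouse embryos. The 10 WT hearts had the normal 2 copies of the interval. The 5 Dp1Tyb hearts carried an extra tandem copy of the chromosome 16 segment from Lipi to Zbtb21, so that every gene of the interval was present in 3 copies. The 5 Dp1TybDyrk1a+/+/- hearts carried the same duplication together with a null allele of Dyrk1a (Dyrk1atm1Mla), which by design leaves Dyrk1a with 2 functional copies while all genes described here still have 3. All mice were of C57BL/6J background, every heart came from its own embryo, and the duplication is inherited and so present in all cells.

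Human trisomy 21 adds a copy of the genes whose mouse counterparts lie here, and congenital heart defects are common in people with it. An additional gene copy usually raises the amount of that gene's RNA roughly in proportion, unless the gene is silent in the tissue or its output is adjusted. The interval holds genes of unrelated functions side by side: chromatin proteins and transcription factors such as Ets2 and Erg, assembly factors for the proteasome and for membrane proteins, an endosomal recycling subunit, ion channels, and the interferon-induced Mx genes. Setd4, Mir802 and Kcnj6 were among the genes whose copy number the study lowered in turn to look for causes of heart defects. Cbr1 was lowered only together with its neighbours, by a deletion from Mir802 to Vps26c. The question put to these data is which of the 3-copy genes were raised in the embryonic heart, by how much, and whether their levels differed between the genotypes with and without the Dyrk1a null allele.

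The authors deposited log2-transformed normalized counts, and every level below is on that log2 scale. Sequencing depth is unknown, since the table holds no read totals. Whole hearts are a mixture of cells, so a change in the share of a cell type and a change in RNA per cell cannot be told apart. Markers of cardiomyocytes (Myh6, Myh7, Tnnt2, Actc1 and Nkx2-5) lay between 10.1 and 17.3 in all 20 hearts, and those of liver and lung were low, with Alb at 3.60 to 3.97 and Sftpc at 1.12 to 1.24. Of all lists of cell type markers, the only gene past the threshold against WT was Vwf, an endothelial gene, which was 0.47 ± 0.05 (SE) higher in Dp1Tyb and 0.33 ± 0.05 (SE) higher in Dp1TybDyrk1a+/+/- hearts. A pair of hearts stood apart from the rest of their group. Over the 15304 tested genes, the median absolute deviation from the other hearts of the group was 0.112 in Dp1TybDyrk1a+/+/- heart 2 and 0.0663 in WT heart 6, against 0.0299 to 0.0437 in the other 18 hearts. Xist was above 12.9 in 3 of 10 WT, 4 of 5 Dp1Tyb and 1 of 5 Dp1TybDyrk1a+/+/- hearts and at most 8.13 in the rest, so embryo sex was not balanced between the groups. WT, Dp1Tyb and Dp1TybDyrk1a+/+/- hearts numbered 4, 2 and 1 on lane 3, 4, 2 and 1 on lane 6, and 2, 1 and 3 on lane 7. Replicate numbers only name the hearts. Dyrk1a itself was at 11.37 ± 0.044 (SD, n = 10) in WT hearts, at 11.69 ± 0.040 (SD, n = 5) in Dp1Tyb hearts and at 11.76 ± 0.056 (SD, n = 5) in Dp1TybDyrk1a+/+/- hearts, so its gene-level RNA was not lower with the null allele. By the study's methods this allele lacks some of the exons, a deletion that its authors saw in the reads, and RNA of the remaining exons can still be counted. The gene-level value therefore does not check the lowered number of functional copies. The methods also state that Dp1TybDyrk1a+/+/- mice were kept as a strain of their own and that controls were WT littermates, but the labels do not say which WT hearts belong to which strain. All 10 WT hearts were pooled, and in the comparison of the mutant groups the genotype cannot be told apart from strain and litter.

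Expression of the interval was raised in both genotypes with the duplication. Of the 52 genes, 27 passed the filter, a mean over the 20 hearts of 10 or more after the log2 values were turned back into normalized counts. All 27 are protein coding and were tested with limma in 1 fit over the 15304 genes that passed. In Dp1Tyb compared to WT hearts, 20 of the 27 genes were called at a Benjamini-Hochberg adjusted P-value under 0.05, all of them increased, where 1.81% of all tested genes were called as increased. In Dp1TybDyrk1a+/+/- compared to WT hearts, 20 of the 27 were also called, again all increased, where the share over all tested genes was 0.627%. The 2 comparisons share the 10 WT hearts. They had 19 genes in common, Ripply3 was called in Dp1Tyb hearts alone, Erg was called in Dp1TybDyrk1a+/+/- hearts alone, and Setd4, Sim2, Kcnj15, Lca5l, Pcp4 and Tmprss2 were called in neither. The genotypes with the duplication did not differ past the threshold in either Ripply3 or Erg.

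The median log2 fold change over the 27 genes was 0.30 in Dp1Tyb hearts, 1.23-fold, and 0.31 in Dp1TybDyrk1a+/+/- hearts, 1.24-fold, while the median over all tested genes was -0.0019 and -0.0030. Called genes ran from 1.13-fold to 1.42-fold in Dp1Tyb and from 1.12-fold to 1.44-fold in Dp1TybDyrk1a+/+/- hearts. None of the 27 reached 1.5-fold, 0.585 on the log2 scale, although Sh3bgr came to 0.59 in Dp1TybDyrk1a+/+/- hearts without heart 2. A 1.5-fold rise is what 3 copies in place of 2 would give if RNA followed copy number and the deposited scale kept the ratios of counts. At the lowest levels the scale did not keep them: Cldn14 was at -2.305 to -2.304 in all 20 hearts, almost without spread. Whether it kept them at the levels of the 27 genes is not known. For 20 genes every Dp1Tyb heart lay above every WT heart, where 1.51% of all tested genes were that clearly separated upwards. For 17 genes every Dp1TybDyrk1a+/+/- heart lay above every WT heart, against 0.562% of all tested genes. The mean over the 27 genes was 8.29 ± 0.0077 (SD, n = 10) in WT hearts, while Dp1Tyb hearts had 8.55 ± 0.015 (SD, n = 5) and Dp1TybDyrk1a+/+/- hearts 8.55 ± 0.012 (SD, n = 5), and the ranges were 8.28 to 8.30, 8.53 to 8.57 and 8.54 to 8.57. With both hearts that stood apart left out, 22 genes were called in Dp1Tyb and 21 in Dp1TybDyrk1a+/+/- hearts. With lane as a covariate the numbers were 20 and 18, and with Xist class as a covariate 20 and 20.

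**Figure D1:**
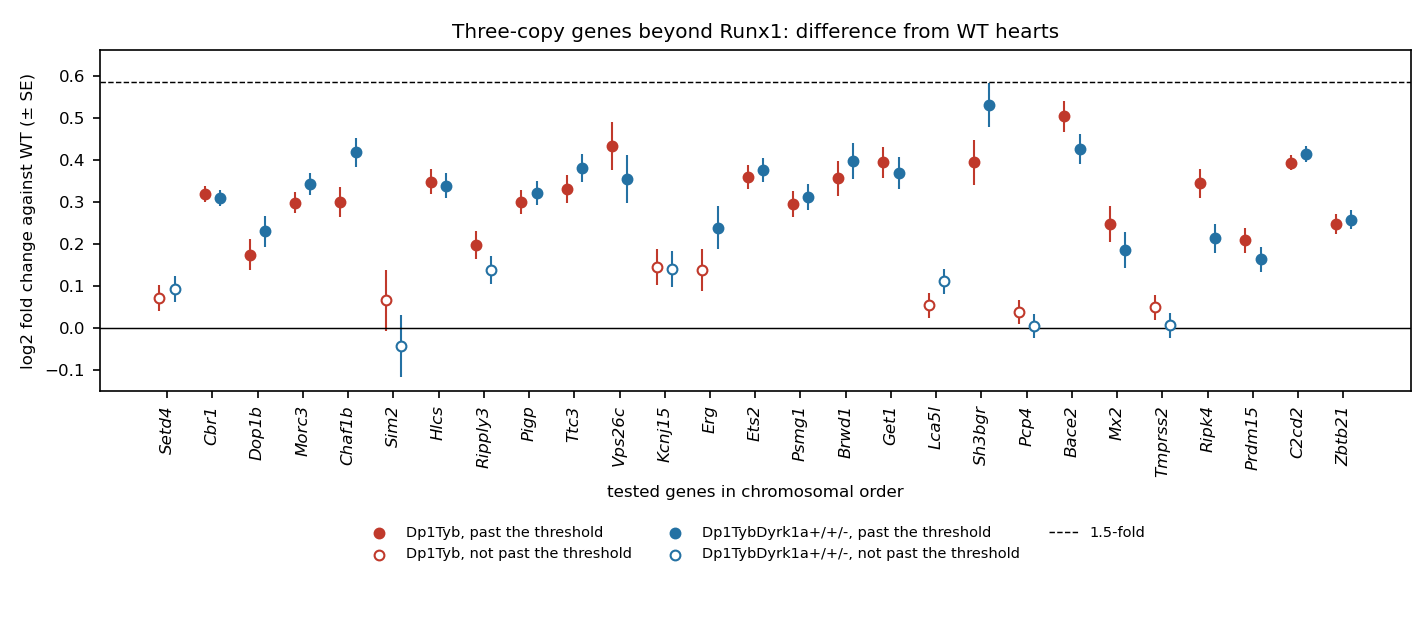
The log2 fold change against WT hearts (y axis, ± SE of the limma fit) is plotted for the 27 tested genes in chromosomal order (x axis), with Dp1Tyb in red and Dp1TybDyrk1a+/+/- in blue, and with filled points past the threshold. Of the filled points, 20 belong to each genotype, all lie above 0, and the dashed 1.5-fold line at 0.585 lies above all points.

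At the proximal end, Cbr1 and Setd4 lie head to head and were both candidates of the mapping. Cbr1 (ENSMUSG00000051483, chr16:93402741-93407393, plus strand) encodes a carbonyl reductase that uses NADPH to reduce ketones, aldehydes and prostaglandins. Its level was 8.94 to 9.01 in WT hearts with a median of 8.95, was 9.25, 9.29, 9.29, 9.29 and 9.28 in the 5 Dp1Tyb hearts, and was 9.24, 9.29, 9.25, 9.28 and 9.26 in the 5 Dp1TybDyrk1a+/+/- hearts. The WT hearts were thus separated from both mutant groups, which covered the same range. Cbr1 rose by 0.32 ± 0.019 (SE, adjusted p = 5.06e-10) in Dp1Tyb and by 0.31 ± 0.019 (SE, adjusted p = 9.35e-10) in Dp1TybDyrk1a+/+/- hearts, with 0.31, 0.34 and 0.30 in Dp1Tyb within lanes 3, 6 and 7.

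Setd4 (chr16:93380340-93401219, minus strand), a SET-domain protein of the lysine methyltransferase family, was more weakly expressed. It was at 5.79 to 5.98 in WT hearts (median 5.85), at 5.98, 5.87, 6.0, 5.88 and 5.93 in Dp1Tyb hearts, and at 5.97, 5.89, 5.95, 6.01 and 5.95 in Dp1TybDyrk1a+/+/- hearts. The groups overlapped, with 1 heart of each mutant group above all WT hearts. Its log2 fold changes of 0.071 and 0.092 did not pass the threshold (adjusted p = 0.263 and 0.294). The other carbonyl reductase genes of the interval, Cbr3 and Cbr1b, had mean normalized counts of 6.15 and 6.81 and were not tested. When genes with a mean normalized count from 1 were also fitted, Cbr1b was called in Dp1TybDyrk1a+/+/- hearts (adjusted p = 0.0213), with levels of 2.78 to 3.05 against 2.71 to 2.72 in WT hearts. The Dp1Tyb hearts, at 2.74 to 2.82, also lay above all WT hearts. In the limma fit without the filter, Cbr1b was not called in Dp1Tyb hearts (adjusted p = 0.369) or between the mutant groups (-0.065, adjusted p = 0.47).

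Among the chromatin proteins and transcription factors, 7 of 10 were called as increased in each mutant group. The median log2 fold change over the 10 was 0.23 in Dp1Tyb and 0.25 in Dp1TybDyrk1a+/+/- hearts. Of all 27 tested genes of the interval, 20 were called as increased in each mutant group. Over all tested genes the shares were 1.81% and 0.627%. Chaf1b (ENSMUSG00000022945, chr16:93680768-93703003, plus strand) encodes the middle subunit of chromatin assembly factor 1, which places histones H3 and H4 on newly replicated DNA. It was at 9.15 to 9.34 in WT hearts (median 9.24), at 9.54, 9.57, 9.56, 9.44 and 9.54 in Dp1Tyb hearts, and at 9.62, 9.80, 9.58, 9.64 and 9.61 in Dp1TybDyrk1a+/+/- hearts. None of the 3 groups overlapped another, in the order WT, Dp1Tyb, Dp1TybDyrk1a+/+/-. Chaf1b rose by 0.30 ± 0.035 (SE, adjusted p = 9.31e-06) in Dp1Tyb and by 0.42 ± 0.035 (SE, adjusted p = 5.16e-08) in Dp1TybDyrk1a+/+/- hearts.

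Because ETS transcription factors are themselves encoded in this interval, the promoter windows of its genes were searched for the ETS core CCGGAAG on both strands. RefSeq windows of GRCm38.p6, from 250 bases before to 50 bases after a start site, were at hand for 30 of the 52 genes. The letters were found in 8 of the 30 genes (26.7%), which were Chaf1b, Dop1b, Dscam, Hlcs, Prdm15, Psmg1, Setd4 and Vps26c, while 9.93% of all 27025 genes with such windows hold them. Other letters searched in the same windows were in 12 (CCAAT box), 6 (E-box CACGTG), 4 (TATAAA) and 1 (E2F) of the 30 genes. An interferon-stimulated response element was in 0 of them. Over all 27025 genes the shares were 41.1%, 8.09%, 15.7%, 2.12% and 3.99%, in the same order. The 30 genes had 46 windows and the 27025 genes 32851, so the numbers of windows per gene differ. These counts were not tested. They are a description of the letters and say nothing of binding. The Chaf1b window is shown because this was the gene whose 3 groups were separated, and the Vps26c window because it holds CCGGAAG on both strands. Capitals mark CCGGAAG or its reverse complement in both and, in Vps26c, also the E2F sequence TTTCGCGC, which with TTTGGCGC and TTTCCCGC was found in 1.84% of all windows. Both are read along the strand of the gene, chr16:93883651-93883950 (plus) and chr16:94526580-94526879 (minus) of GRCm38.p6.
Chaf1b: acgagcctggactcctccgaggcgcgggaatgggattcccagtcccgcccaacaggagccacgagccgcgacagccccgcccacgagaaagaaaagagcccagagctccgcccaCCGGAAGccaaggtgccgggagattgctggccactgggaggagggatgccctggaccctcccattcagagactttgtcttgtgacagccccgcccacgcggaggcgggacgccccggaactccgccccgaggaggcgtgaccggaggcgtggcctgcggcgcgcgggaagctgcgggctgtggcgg
Vps26c: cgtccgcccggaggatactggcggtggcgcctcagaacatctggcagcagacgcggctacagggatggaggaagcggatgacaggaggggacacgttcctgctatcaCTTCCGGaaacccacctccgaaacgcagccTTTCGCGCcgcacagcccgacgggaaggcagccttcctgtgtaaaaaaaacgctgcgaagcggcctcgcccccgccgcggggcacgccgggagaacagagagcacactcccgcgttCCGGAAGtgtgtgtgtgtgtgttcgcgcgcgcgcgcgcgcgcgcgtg

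Of the ETS factors themselves, Ets2 was called as increased in both mutant groups and Erg in 1 of them. Ets2 (chr16:95502847-95522095), which acts downstream of MAP kinase signalling, was at 11.1 to 11.3 in WT hearts, at 11.58, 11.50, 11.54, 11.60 and 11.56 in Dp1Tyb hearts, and at 11.55, 11.68, 11.51, 11.56 and 11.57 in Dp1TybDyrk1a+/+/- hearts. Both mutant groups lay wholly above WT, and Ets2 rose by 0.36 and 0.37 (SE 0.028, adjusted p = 2.96e-08 and 1.10e-08). Erg (chr16:95160028-95387452), an ETS factor that maintains endothelial identity, was at 9.15 to 9.46 in WT hearts (median 9.25), at 9.37, 9.45, 9.39, 9.43 and 9.35 in Dp1Tyb hearts, and at 9.41, 9.77, 9.41, 9.44 and 9.46 in Dp1TybDyrk1a+/+/- hearts. In both mutant groups the levels overlapped WT heart 6, at 9.46, and no other WT heart. The log2 fold change of Erg was 0.14 ± 0.051 (SE, adjusted p = 0.167) in Dp1Tyb and 0.24 ± 0.051 (SE, adjusted p = 0.0214) in Dp1TybDyrk1a+/+/- hearts, where the call was lost with lane as a covariate (adjusted p = 0.0597). Without Dp1TybDyrk1a+/+/- heart 2 the Dp1Tyb value was called too (adjusted p = 0.0220). With WT heart 6 and Dp1TybDyrk1a+/+/- heart 2 both left out, Erg was called in both, at 0.16 (adjusted p = 0.000476) and 0.19 (adjusted p = 0.000179). Of the endothelial and endocardial markers, 7 of 8 did not pass the threshold, and their summed level was 14.24 to 14.39 in WT, 14.29 to 14.45 in Dp1Tyb and 14.36 to 14.44 in Dp1TybDyrk1a+/+/- hearts. The part of endothelial cells in the Erg values was not tested.

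Of the other nuclear factors, Morc3, an ATPase that reads methylated histone H3, rose by 0.30 in Dp1Tyb and by 0.34 in Dp1TybDyrk1a+/+/- hearts (SE 0.026, adjusted p = 1.18e-07 and 1.10e-08). Brwd1, a protein with bromodomains that read acetylated histones, rose by 0.36 and 0.40 (SE 0.043, adjusted p = 1.48e-05 and 2.74e-06). The most distal gene, Zbtb21, a zinc finger repressor at the boundary of the duplication, was at 8.77 to 8.93 in WT, 9.001 to 9.11 in Dp1Tyb and 9.07 to 9.12 in Dp1TybDyrk1a+/+/- hearts. It rose by 0.25 and 0.26 (SE 0.023, adjusted p = 4.38e-07 and 1.86e-07). Prdm15, a zinc finger regulator of early development, rose by 0.21 and 0.16 (SE 0.029, adjusted p = 0.000116 and 0.00344). All 4 had every mutant heart above every WT heart.

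Ripply3 and Sim2 were expressed at low levels. Ripply3, a co-repressor of T-box factors in the pharyngeal region, was at 6.10 to 6.25 in WT hearts, at 6.37, 6.47, 6.41, 6.32 and 6.25 in Dp1Tyb hearts, and at 6.26, 6.24, 6.37, 6.30 and 6.35 in Dp1TybDyrk1a+/+/- hearts. In each mutant group 4 of 5 hearts lay above all WT hearts. The log2 fold change was 0.20 (SE 0.033, adjusted p = 0.00123) and 0.14 (SE 0.033, adjusted p = 0.0618). The second was called without Dp1TybDyrk1a+/+/- heart 2 (adjusted p = 0.0381), and also without WT heart 2, Dp1Tyb heart 2 or Dp1Tyb heart 5, and the difference between the mutant groups was 0.060 with a 95% interval from -0.020 to 0.14. Sim2, a bHLH-PAS factor best known from the nervous system, was at 4.71 to 5.04 in WT, 4.72 to 5.14 in Dp1Tyb and 4.69 to 5.17 in Dp1TybDyrk1a+/+/- hearts, and its spread between WT hearts (SD 0.12) was the largest of the 27 genes.

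In a mixed group of 7 genes, 7 of 7 rose in both genotypes, with a median log2 fold change of 0.33 and 0.34. It joins Ttc3, Psmg1, Get1, Vps26c and Dop1b, genes for ubiquitin ligation, protein assembly and trafficking, with the enzyme genes Hlcs and Pigp. All 7 had mean normalized counts over 100. At 100 or more, 17 of the interval's 19 genes were called as increased in Dp1Tyb and 18 in Dp1TybDyrk1a+/+/- hearts. The medians of the 19 were 0.32 and 0.34. These counts therefore do not set the group apart from other interval genes of its level. Ttc3, a RING-type ubiquitin ligase and with a mean normalized count of 9178 the most abundant of the interval's genes on this scale, rose by 0.33 and 0.38 (SE 0.033, adjusted p = 1.18e-06 and 1.22e-07). Psmg1, a chaperone of proteasome assembly, rose by 0.29 and 0.31 (SE 0.032, adjusted p = 3.35e-06 and 1.25e-06). Hlcs, the enzyme that attaches biotin to carboxylases, rose by 0.35 and 0.34 (SE 0.030, adjusted p = 1.30e-07 and 1.51e-07). Dop1b, a large protein of endosome to Golgi traffic, showed the smallest of these increases, at 0.17 and 0.23 (SE 0.037, adjusted p = 0.00963 and 0.000801).

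Vps26c (chr16:94298587-94327743, minus strand), a subunit of the retriever complex that returns membrane cargo from endosomes to the surface, had a heart far from the others in each group. It was at 9.29 to 9.55 in WT hearts (median 9.49), at 9.93, 9.79, 9.94, 9.94 and 9.92 in Dp1Tyb hearts, and at 9.89, 9.49, 9.88, 9.95 and 9.91 in Dp1TybDyrk1a+/+/- hearts. Dp1TybDyrk1a+/+/- heart 2 was therefore at the WT level, and the lowest WT value came from WT heart 6. Vps26c rose by 0.43 ± 0.057 (SE, adjusted p = 5.61e-05) in Dp1Tyb and by 0.35 ± 0.057 (SE, adjusted p = 0.000955) in Dp1TybDyrk1a+/+/- hearts, and by 0.44 (adjusted p = 5.71e-08) in the latter without heart 2. In the same heart 2, Chaf1b, Ttc3, Erg, Ets2 and Dop1b had the highest and Bace2, Get1 and Sh3bgr the lowest values of the group.

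Pigp and Get1 each overlap another gene of the interval. Pigp, a subunit of the enzyme that starts the synthesis of GPI anchors, is transcribed away from Ttc3 on the opposite strand. The 2 genes overlap by 1225 bases of GRCm39, 354 of them exonic in both, and the strand setting of the counting is not given in the sources used here. Pigp rose by 0.30 and 0.32 (SE 0.029, adjusted p = 6.70e-07 and 1.86e-07), close to the values of Ttc3. The RefSeq windows around the start sites of Pigp share 288, 128, 92 and 0 bases with the window of Ttc3. The Ttc3 window (chr16:94370489-94370788 of GRCm38.p6, plus strand) is shown for the largest shared stretch, with capitals for the CCAAT box and the E-box CACGTG, searched on both strands. These letters are in 37.4% and 7.15% of all windows.
Ttc3: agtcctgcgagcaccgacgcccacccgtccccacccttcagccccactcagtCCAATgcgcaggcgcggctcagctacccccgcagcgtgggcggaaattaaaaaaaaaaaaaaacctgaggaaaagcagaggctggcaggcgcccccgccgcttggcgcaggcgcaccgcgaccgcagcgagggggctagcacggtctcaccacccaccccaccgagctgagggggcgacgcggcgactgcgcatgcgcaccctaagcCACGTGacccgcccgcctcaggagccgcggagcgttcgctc

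Get1, the membrane receptor through which tail-anchored proteins are inserted into the endoplasmic reticulum, was at 9.76 to 9.92 in WT hearts, at 10.20, 10.27, 10.22, 10.19 and 10.22 in Dp1Tyb hearts, and at 10.27, 10.04, 10.31, 10.22 and 10.13 in Dp1TybDyrk1a+/+/- hearts. It rose by 0.39 and 0.37 (SE 0.037, adjusted p = 4.38e-07 and 1.03e-06), and all mutant hearts lay above all WT hearts. Lca5l, a relative of the ciliary protein lebercilin, lies wholly inside Get1 on the opposite strand and shares 623 exonic bases with it. Its log2 fold changes of 0.053 and 0.11 did not pass the threshold (SE 0.030, adjusted p = 0.42 and 0.138).

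Sh3bgr (chr16:96001595-96030138, plus strand), a small thioredoxin-like protein of heart and skeletal muscle, showed the largest increase in Dp1TybDyrk1a+/+/- hearts. Its level was 11.9 to 12.2 in WT hearts, was 12.39, 12.54, 12.49, 12.58 and 12.55 in Dp1Tyb hearts, and was 12.64, 12.39, 12.72, 12.73 and 12.75 in Dp1TybDyrk1a+/+/- hearts. In the last group heart 2 was the lowest, and the other 4 hearts lay above all Dp1Tyb hearts. Sh3bgr rose by 0.39 ± 0.053 (SE, adjusted p = 6.49e-05) in Dp1Tyb and by 0.53 ± 0.053 (SE, adjusted p = 8.18e-07) in Dp1TybDyrk1a+/+/- hearts. C2cd2, which encodes a protein with a C2 domain, had the smallest SD between WT hearts of the 27 genes, 0.024. It was at 9.57 to 9.65 in WT hearts, at 9.99, 9.999, 9.97, 9.99 and 10.03 in Dp1Tyb hearts, and at 9.999, 10.05, 9.98, 10.04 and 10.01 in Dp1TybDyrk1a+/+/- hearts. The mutant groups covered the same range, far above WT. C2cd2 rose by 0.39 and 0.41 (SE 0.018, adjusted p = 1.64e-11 and 5.92e-12). C2cd2 overlaps Zbtb21 on the same strand over 19242 bases, of which 86 are exonic in both.

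Bace2 (chr16:97157720-97244136, plus strand), an aspartyl protease related to the beta-secretase of the amyloid precursor protein, showed the largest increase in Dp1Tyb hearts. It was at 9.52 to 9.69 in WT hearts, at 10.12, 10.18, 10.23, 10.08 and 10.09 in Dp1Tyb hearts, and at 10.11, 9.92, 10.05, 10.12 and 10.11 in Dp1TybDyrk1a+/+/- hearts. All mutant hearts lay above all WT hearts, and Bace2 rose by 0.50 (SE 0.037, adjusted p = 9.42e-09) and 0.43 (SE 0.037, adjusted p = 8.99e-08). The other tested genes of channels and the cell surface were not called. Kcnj15, an inward rectifier potassium channel, was at 7.30 to 7.58 in WT and 7.60 to 7.65 in Dp1Tyb hearts, which did not overlap, yet its log2 fold change of 0.14 ± 0.043 (SE) missed the threshold (adjusted p = 0.0742), and it was called at the same value without Dp1TybDyrk1a+/+/- heart 2 (adjusted p = 0.0378). Tmprss2, a transmembrane serine protease, was at 3.44 to 3.54 in WT, 3.43 to 3.60 in Dp1Tyb and 3.43 to 3.64 in Dp1TybDyrk1a+/+/- hearts. Pcp4, a calmodulin-binding peptide, was likewise near the lower limit of the filter, at 3.51 to 3.62 in WT, 3.53 to 3.64 in Dp1Tyb and 3.50 to 3.71 in Dp1TybDyrk1a+/+/- hearts.

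Ripk4 (chr16:97543133-97564987, minus strand), a kinase of epidermal differentiation, was at 6.29 to 6.48 in WT hearts (median 6.41), at 6.77, 6.74, 6.86, 6.77 and 6.60 in Dp1Tyb hearts, and at 6.59, 6.57, 6.62, 6.67 and 6.64 in Dp1TybDyrk1a+/+/- hearts. It rose in both groups, by 0.34 (SE 0.035, adjusted p = 1.48e-06) and by 0.21 (SE 0.035, adjusted p = 0.00127). The Dp1TybDyrk1a+/+/- hearts lay between WT and 4 of the 5 Dp1Tyb hearts.

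Mx2, an interferon-induced GTPase of the dynamin family, was at 4.82 to 4.94 in WT hearts, at 5.29, 5.05, 5.06, 5.00 and 5.20 in Dp1Tyb hearts, and at 4.98, 4.94, 5.18, 5.14 and 5.06 in Dp1TybDyrk1a+/+/- hearts. It rose by 0.25 ± 0.042 (SE, adjusted p = 0.00155) in Dp1Tyb hearts. In Dp1TybDyrk1a+/+/- hearts its increase of 0.18 (adjusted p = 0.0420) was at the edge of the threshold: the call was lost with lane as a covariate, at 0.16 (adjusted p = 0.217), and without Dp1TybDyrk1a+/+/- heart 3, at 0.15 (adjusted p = 0.212). It was also lost without any 1 of 7 WT hearts (1, 2, 3, 4, 5, 7 and 10) or without Dp1TybDyrk1a+/+/- heart 4 or 5. Its neighbour Mx1 had a mean normalized count of 4.67 and was not tested. Over 842 bases, 34.0% of the longest Mx2 transcript, the sequence was at least 95% identical to Mx1, so reads of the pair may not be fully separated. Mx2 was not alone in this: 12 of the 27 tested genes matched another gene at 95% identity over 100 bases or more. Pigp shared 36.6% of its longest transcript with Ttc3 and 25.2% with Gm9001, and Pcp4 shared 23.2% with Gm49948. Outside the interval, 4 of 11 interferon-induced genes were called as increased in Dp1Tyb hearts, with 0 called as decreased. Over all tested genes 1.81% were called as increased. The 4 included Rtp4, Isg15 and Bst2, effectors of the antiviral response, at 0.30, 0.20 and 0.32 (adjusted p = 0.0125, 0.0125 and 0.0250). The median over the 11 genes was 0.11, against -0.0019 over all tested genes. With Xist class as a covariate, or without Dp1Tyb heart 1, 0 of the 4 were called. In Dp1TybDyrk1a+/+/- hearts 0 of 11 were called and the median was 0.090, and between the mutant groups 0 of 11 were called.

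**Figure D2:**
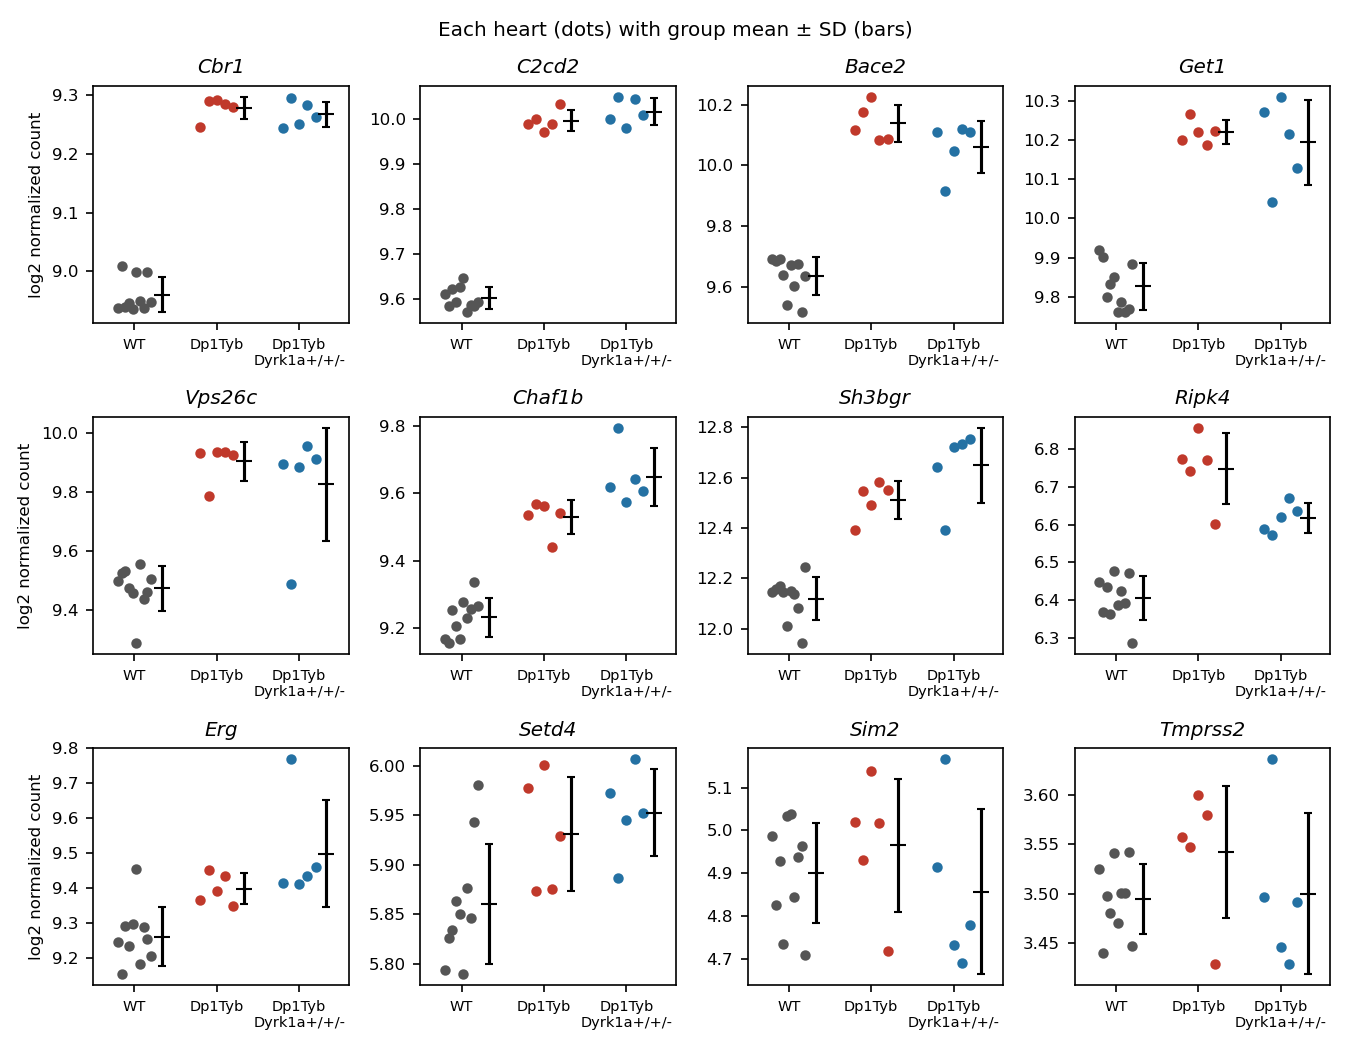
Each panel plots the log2 normalized count of 1 gene (y axis, with its own range) in each heart (dots) of the 3 genotypes (x axis), with the group mean ± SD beside the dots. Cbr1, C2cd2, Bace2, Get1, Chaf1b, Sh3bgr and Ripk4 show WT hearts below all mutant hearts, Vps26c shows Dp1TybDyrk1a+/+/- heart 2 at 9.49 among WT hearts, and Setd4, Sim2 and Tmprss2 show groups that overlap.

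The mutant groups were also compared directly in the same fit. Of the 27 genes, 0 were called between Dp1Tyb and Dp1TybDyrk1a+/+/- hearts, where 1.16% of all tested genes were called in either direction. Among the 27, 13 were higher and 14 lower in Dp1Tyb hearts, and the median difference was -0.0099. At an unadjusted p under 0.05 there were 3 genes, where 18.5% of all tested genes passed that mark: Chaf1b at -0.12 with a 95% interval from -0.20 to -0.035 (adjusted p = 0.128), Sh3bgr at -0.14 from -0.26 to -0.010 (adjusted p = 0.234), and Ripk4 at 0.13 from 0.047 to 0.22 (adjusted p = 0.103). For the most precise gene, C2cd2, the difference was -0.021 with an interval from -0.065 to 0.023, and for Cbr1 it was 0.011 from -0.035 to 0.056. For Sim2 the interval was wide, from -0.069 to 0.29, so differences inside it were not excluded there.

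The call on Sh3bgr changed with a single heart. Without Dp1TybDyrk1a+/+/- heart 2 the difference was -0.20 and was called (adjusted p = 0.0457). With all hearts, heart 2 included, it was -0.095, -0.22 and -0.23 within lanes 3, 6 and 7. In each lane 1 of the mutant groups had a single heart. With Xist class as a covariate it was -0.11 (adjusted p = 0.59). Of the 5 cardiomyocyte markers 0 were called in the same comparison, with a median of -0.074 and values from -0.22 ± 0.064 (SE, adjusted p = 0.0840) for Tnnt2 to 0.011 for Nkx2-5. Their summed level was 18.34 to 18.69 in WT, 18.34 to 18.53 in Dp1Tyb and 18.44 to 18.57 in Dp1TybDyrk1a+/+/- hearts, and their part in the Sh3bgr difference was not tested. Ripk4 was called without Dp1Tyb heart 5, its lowest Dp1Tyb heart, at 0.17 (adjusted p = 0.0413). With all hearts Ripk4 was 0.083, 0.18 and 0.15 within the lanes. With hearts weighted by their quality, 5 genes were called: Sh3bgr lower, and Ripk4, Sim2, Pcp4 and Tmprss2 higher in Dp1Tyb hearts. With these weights 1247 of all 15304 tested genes were called in either direction, against 178 in the main fit.

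**Figure D3:**
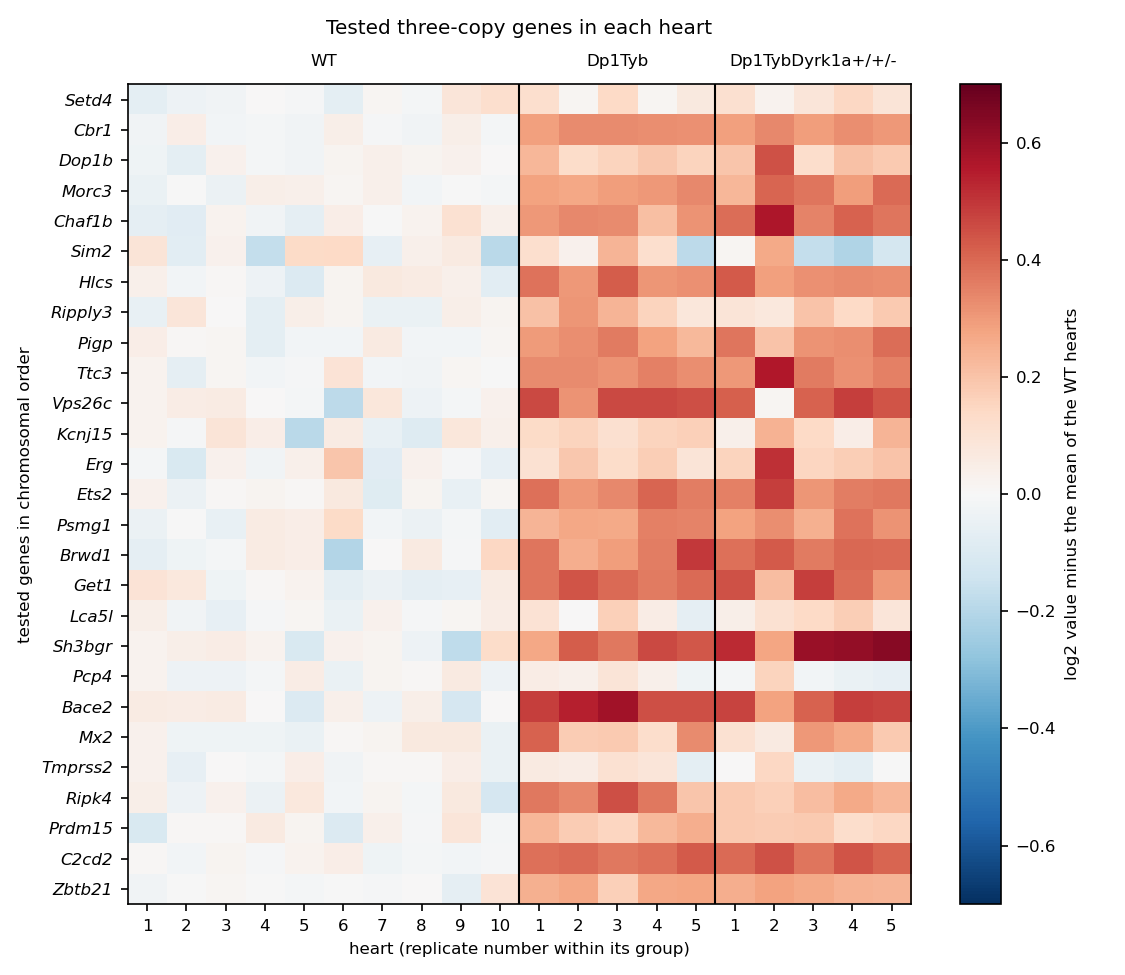
Colour gives the log2 value of each of the 27 tested genes (rows, in chromosomal order) in each of the 20 hearts (columns, by group) minus the mean of the 10 WT hearts. Most rows are red in all 10 mutant hearts, the rows of Setd4, Lca5l, Pcp4 and Tmprss2 stay pale, that of Sim2 holds both colours, and in Dp1TybDyrk1a+/+/- heart 2 Vps26c is pale while Chaf1b, Ttc3 and Erg are darker than in the rest of the group.

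The fold change was larger in genes of higher level, and showed little relation to place on the chromosome. Across the 27 genes, which share the same hearts, Spearman's rho between mean level and log2 fold change was 0.81 in Dp1Tyb and 0.92 in Dp1TybDyrk1a+/+/- hearts, while rho with position was 0.11 and 0.033. At 100 normalized counts or more there were 19 genes. Of these, 17 were called as increased in Dp1Tyb and 18 in Dp1TybDyrk1a+/+/- hearts, with median log2 fold changes of 0.32 and 0.34. Of the 8 genes from 10 to 100, 3 and 2 were called as increased, with medians of 0.068 and 0.10. On the deposited scale low levels are crowded together, and the part of the transformation in the relation was not tested. The genes between 10 and 100 that were called, Ripply3, Mx2 and Ripk4 in Dp1Tyb hearts and the last pair in Dp1TybDyrk1a+/+/- hearts, had mean normalized counts of 76.3, 31.7 and 93.9. Setd4, at 59.8, and Lca5l, at 44.5, lay in the same range and were not called.

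**Figure D4:**
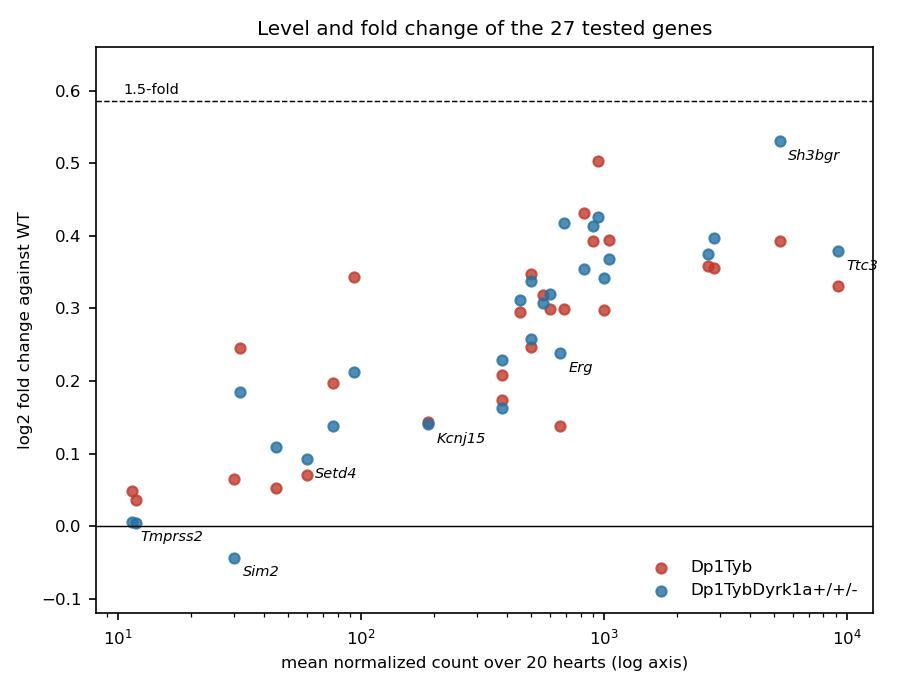
The log2 fold change against WT (y axis) is plotted against the mean normalized count over the 20 hearts (x axis, log scale) for the 27 tested genes, in red for Dp1Tyb and in blue for Dp1TybDyrk1a+/+/-, with names beside some of the blue points. Genes under 100 have medians of 0.068 and 0.10, and genes of 100 or more centre on 0.32 and 0.34.

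In the rest of the duplicated segment, from Lipi to Hunk, 25 of 37 tested genes were called as increased in each mutant group, with median log2 fold changes of 0.30 and 0.33. From beyond Hunk to Runx1, 25 and 22 of 29 were called as increased, with medians of 0.30 and 0.34. Over all tested genes 1.81% and 0.627% were called as increased. In Dp1Tyb hearts at 100 normalized counts or more, 24 of 26 were called from Lipi to Hunk, 22 of 24 to Runx1 and 17 of 19 beyond Runx1. From 10 to 100 these counts were 1 of 11, 3 of 5 and 3 of 8. Beyond Runx1 the medians of all tested genes were 0.30 and 0.31. The difference between the parts of the segment was not tested. Within the interval, 9 and 8 of the 11 tested genes from Mir802 to Vps26c were called as increased in Dp1Tyb and Dp1TybDyrk1a+/+/- hearts. So were 5 and 6 of the 8 from beyond Dyrk1a to B3galt5, and 6 and 6 of the 8 from Igsf5 to Zbtb21. The study's Dp3Tyb duplication holds 8 coding genes in 3 copies that its Ts1Rhr duplication does not. Of these, 6 were called as increased in each mutant group (Cbr1, Mx2, Ripk4, Prdm15, C2cd2 and Zbtb21), and Setd4 and Tmprss2 did not pass the threshold.

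The proteins that work with the products of these genes are mostly encoded elsewhere, in 2 copies. Lists of such partners and relatives were compiled for Chaf1b, Psmg1, Get1, Pigp, Vps26c, Dop1b, Hlcs, Brwd1 and Morc3, the ETS factors, the Kcnj channels and Sim2. Of their 70 tested genes, 0 were called in any of the 3 comparisons by limma, with 9, 9 and 11 at an unadjusted p under 0.05 in Dp1Tyb against WT, Dp1TybDyrk1a+/+/- against WT and Dp1Tyb against Dp1TybDyrk1a+/+/-. Over all tested genes 3.08%, 0.712% and 1.16% were called in either direction and 15.6%, 9.64% and 18.5% had an unadjusted p under 0.05, so the partner genes are not set apart from the background by these counts. Their log2 fold changes against WT ran from -0.12 to 0.14 in Dp1Tyb and from -0.14 to 0.13 in Dp1TybDyrk1a+/+/- hearts, with medians of -0.0012 and -0.0062. The 4 CAF-1 and histone chaperone genes listed with Chaf1b lay between -0.059 and 0.0031 in Dp1Tyb hearts while Chaf1b rose by 0.30. The 15 retriever and CCC genes listed with Vps26c lay between -0.11 and 0.047 while Vps26c rose by 0.43, and the 4 proteasome chaperones listed with Psmg1 lay between 0.0046 and 0.025 while Psmg1 rose by 0.29. With hearts weighted by their quality, 11 of the 81 partner genes, interferon-induced genes included, were called in Dp1Tyb hearts. With these weights 1422 of all 15304 tested genes were called, against 471 in the main fit.

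The remaining 25 genes could not be tested at these levels. Of them 5 were listed at 0 in every heart: Gm26626, Mir802, Gm45384, Gm37259 and Mir6964. Libraries made from polyadenylated RNA do not capture mature microRNAs, so this gives no measure of miR-802. Mean normalized counts from 1 to 10 were found for 6 genes (Cbr1b, Dscam, Cbr3, Mx1, B3galt5 and Igsf5) and were under 1 for the other 14, among them Kcnj6 at 0.723, Cldn14 at 0.202 and Fam3b at 0.224. Kcnj6, an inward rectifier channel and a candidate of the mapping, was at -0.47 to -0.45 in all groups, and Dscam, a neuronal adhesion molecule, at 2.71 to 2.78. Fitted without the filter, the log2 fold changes of the 20 of these genes that varied lay between -0.065 and 0.14 in the 3 comparisons, and Cbr1b in Dp1TybDyrk1a+/+/- hearts was the only one called (adjusted p = 0.0483).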

How the data were processed

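RNA of 20 hearts was sequenced (KAPA mRNA HyperPrep, Illumina HiSeq). The submitters' processing notes name Trimmomatic 0.36, STAR 2.5.2a, RSEM 1.2.31, DESeq2 and GRCm38, without roles. The table deposited by the authors holds normalized counts on a log2 scale, with 48795 genes in rows. Low values lie close together, and whether this lowers the fold changes of the 27 tested genes was not tested. Columns given to no sample numbered 0. The study tested counts with DESeq2, which the deposited values do not allow, so limma 3.58.1 in R 4.3.3 (eBayes with trend) was fitted to all 20 hearts and to genes whose mean of 2 to the power of the value was at least 10 (called mean normalized count here), with Benjamini-Hochberg adjustment over 15304 genes. The labels do not give litters or strains of the WT hearts, so all 10 were used. P-values rest on the spread between embryos. Positions are GRCm39 (GENCODE M39) and promoters GRCm38.p6 (RefSeq). Transcripts were compared with blastn 2.17.0. Values by heart are given for the 3 called genes with the largest fold change in each comparison with WT. They are also given for some of the genes the study names and some listed regulators and muscle genes. For the others only group ranges or fold changes are given. Of the 3 called genes with the smallest fold change in each comparison, Dop1b and Prdm15 have no full values by heart. The genes described and all lists were chosen with earlier results of these data known. The Xist covariate and the omission of both hearts that stood apart were added after seeing the data. A called gene of the interferon list is not reported here by name.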

Additional observations from a re-analysis of the deposited data

Results flagged for a closer look

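In the 27 tested genes, 81 groups of hearts were examined for a heart far from the others, and 12 were found. Chance gives about 1 in 20 such groups, and the genes of a heart are not independent. Of the 12, 5 came from Dp1TybDyrk1a+/+/- heart 2. In this heart Dop1b was at 8.90 (others 8.58 to 8.66), Ttc3 at 13.53 (others 13.28 to 13.34), Erg at 9.77 (others 9.41 to 9.46) and Pcp4 at 3.71 (others 3.50 to 3.54), each the highest of its group, and Vps26c at 9.49 (others 9.88 to 9.95) was the lowest. WT heart 6 gave 2 more, with Vps26c lowest at 9.29 (others 9.44 to 9.55) and Erg highest at 9.46 (others 9.15 to 9.30). These are the hearts that also stood apart over all tested genes. WT heart 10 was the highest in Zbtb21 at 8.93 (others 8.77 to 8.85).

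Among Dp1Tyb hearts, Cbr1 was lowest in heart 1 at 9.25 (others 9.28 to 9.29), Chaf1b in heart 4 at 9.44 (others 9.54 to 9.57), Vps26c in heart 2 at 9.79 (others 9.93 to 9.94) and Zbtb21 in heart 3 at 9.001 (others 9.09 to 9.11). In each of these genes the lowest Dp1Tyb heart was still above all WT hearts.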

How the results depend on the processing

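The numbers of called genes against WT stayed between 17 and 22 in Dp1Tyb and between 18 and 22 in Dp1TybDyrk1a+/+/- hearts under every alternative run, and between 20 and 22 and between 19 and 21 when single hearts were omitted. The median log2 fold change moved with the filter: with no filter, a minimum of 1 and a minimum of 100 it was 0.0707, 0.2461 and 0.3186 in Dp1Tyb and 0.1098, 0.2296 and 0.3421 in Dp1TybDyrk1a+/+/- hearts, since the filter sets which genes enter. Leaving out single hearts kept it at 0.2876 to 0.2995 and 0.2932 to 0.3121, and at -0.0102 to -0.0018 between the mutant groups. The number of genes called between the mutant groups was 5 with weighted hearts, 1 without both hearts that stood apart, and 0 to 1 with single hearts left out. Of all 15304 tested genes, 1247, 606 and 30 to 404 were called in these refits.

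Partner genes called in Dp1Tyb hearts numbered 2 with a minimum of 100, 11 with weighted hearts, 7 with only the groups compared, 0 with Xist class as a covariate and 11 without both hearts that stood apart, and 0 to 7 with single hearts left out. With a minimum of 100, 430 of all 11399 tested genes were called. In the other refits, in the same order, 1422, 779, 222, 1178 and 266 to 959 of all 15304 were called. In Dp1TybDyrk1a+/+/- hearts the called partner genes numbered 4, 1 and 2 with weighted hearts, only the groups compared and both hearts left out, and 0 to 2 with single hearts left out. Of all 15304 tested genes, 341, 98, 212 and 88 to 158 were called there. Between the mutant groups 4 partner genes were called with weighted hearts, where 1247 of all 15304 tested genes were called. The causes were not tested.

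Of 38 results for single genes, followed through 1202 refits, 1163 refits kept direction and side of the threshold, 16 lost a call, 14 gained one and 9 changed sign. The sign changes were Tmprss2 (-0.0334 with weighted hearts, -0.0315 without both hearts, -0.0288 to 0.0233 with single hearts left out) and Pcp4 (-0.0349, -0.0392, -0.0027 with lane as a covariate, and -0.0340 to 0.0202) in Dp1TybDyrk1a+/+/- hearts, neither of them called. Depth is unknown, and weakly expressed genes lie close together on the deposited scale.

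No paired analysis was possible because replicate numbers only name the hearts, and the labels do not say which WT hearts are littermates of which mutant hearts.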
